A study of Mus musculus with 4 samples.

Results

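The genes described here are the adenylyl cyclases, the phosphodiesterases, the numbered A-kinase anchoring proteins (AKAPs) and the CREB transcription factors with their coactivators, as measured in HT-22 cells with and without induction of Pja2. They were chosen by gene symbol and number 44 of the 24689 genes in the deposited table: 8 adenylyl cyclase genes, 17 phosphodiesterase genes, 13 AKAP genes and 6 CREB factor genes. HT-22 is known as an immortalized mouse hippocampal neuronal cell line. RNA sequencing covered 2 libraries of control cells, labelled both uninduced and wild type, and 2 libraries of cells labelled as induced for Pja2, with the tag Pja2-pb in their titles. Cells of both groups were at passages 21 to 24. The labels do not say how Pja2 was induced, whether both groups came from the same clone, or whether the replicates were separate cultures, and the p-values therefore reflect no more than the spread among these libraries.

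Cyclic AMP is made from ATP by adenylyl cyclases, most of which sit in the plasma membrane under the control of G proteins, and is broken down by phosphodiesterases. Its main target is protein kinase A, whose regulatory subunits are held at particular places in the cell by AKAPs. Active kinase phosphorylates CREB family factors, which bind the cAMP response element in promoters and recruit coactivators, and in the hippocampus this route is known for its part in synaptic plasticity and memory. The protein made from Pja2 is a RING ubiquitin ligase that binds and ubiquitinates regulatory subunits of protein kinase A.

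Each library held between 25787452 and 35262653 reads in genes. Normalized reads of Pja2 were 6167 and 5881 in controls, against 54830 and 54244 in induced cells, so the targeted gene was high in the 2 libraries labelled as induced. A normalized read is a read divided by the authors' factor for its library. The identity of the cells was checked against marker lists. Of 15 neuronal markers listed, 9 were in the table and 2, Tubb3 and Camk2a, reached a mean of 1 CPM. CPM is a unit of reads relative to the library total, in which 1 CPM was 25.8 to 35.3 reads. The neuronal list summed to between 19.1 and 26.5 CPM over the 4 libraries, most of it from Tubb3 (a mean of 20.2 CPM). Camk2a was under 1 CPM in replicate 2 of both groups (0.94 in control and 0.71 in induced cells). The astrocyte list summed to between 92.5 and 131 CPM, most of it from Slc1a3 (a mean of 107 CPM), so the astrocyte list was higher than the neuronal one in every library. All 10 mesenchymal markers reached 1 CPM, and that list summed to between 13979 and 16081 CPM. Among them Acta2 was called higher in induced cells and Col3a1 lower, and their part in the results was not tested. Of the 4 endothelial and 5 microglial and macrophage markers in the table, 0 and 1 reached 1 CPM. The mesenchymal sum was far above the neuronal one in every library, so these lists give little support to a neuronal name. In bulk libraries of this kind, fewer cells that express a gene and less RNA per cell cannot be told apart.

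Induction of Pja2 went with few changes among these genes. Of the 28 that had a mean of at least 1 CPM and were tested, Adcy7 rose, Pde5a fell and 26 did not pass the test. The test was limma on the deposited log2 values with Benjamini-Hochberg adjustment over 13276 genes and a threshold of 0.05. The 1 rise and the 1 fall are each 3.57% of the 28, beside 2.08% of all tested genes called higher and 1.34% called lower, so the share of called members was near the background. The median log2 fold change, induced minus control, was -0.00 over the 28 members and 0.00 over all tested genes, with 14 members above 0 and 14 below. For 20 of the 28 the log2 fold change was smaller than 0.25 in size. No share of all tested genes is given at that size, so the count does not set these members apart from other genes. Both induced libraries lay above both controls for 9 members (32.1%, against 26.2% of all tested genes) and below both for 8 (28.6%, against 25.1%). The plot of fold changes shows Pde5a as the lowest member, with an interval (-1.72 to -0.75) that overlaps that of Akap12 (-1.41 to -0.40). It shows Adcy7 within the range of members that did not pass (Adcy3 and Adcy5 lay further above 0), and wide intervals for Adcy5, Creb1 and Pde6d.

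**Figure D1:**
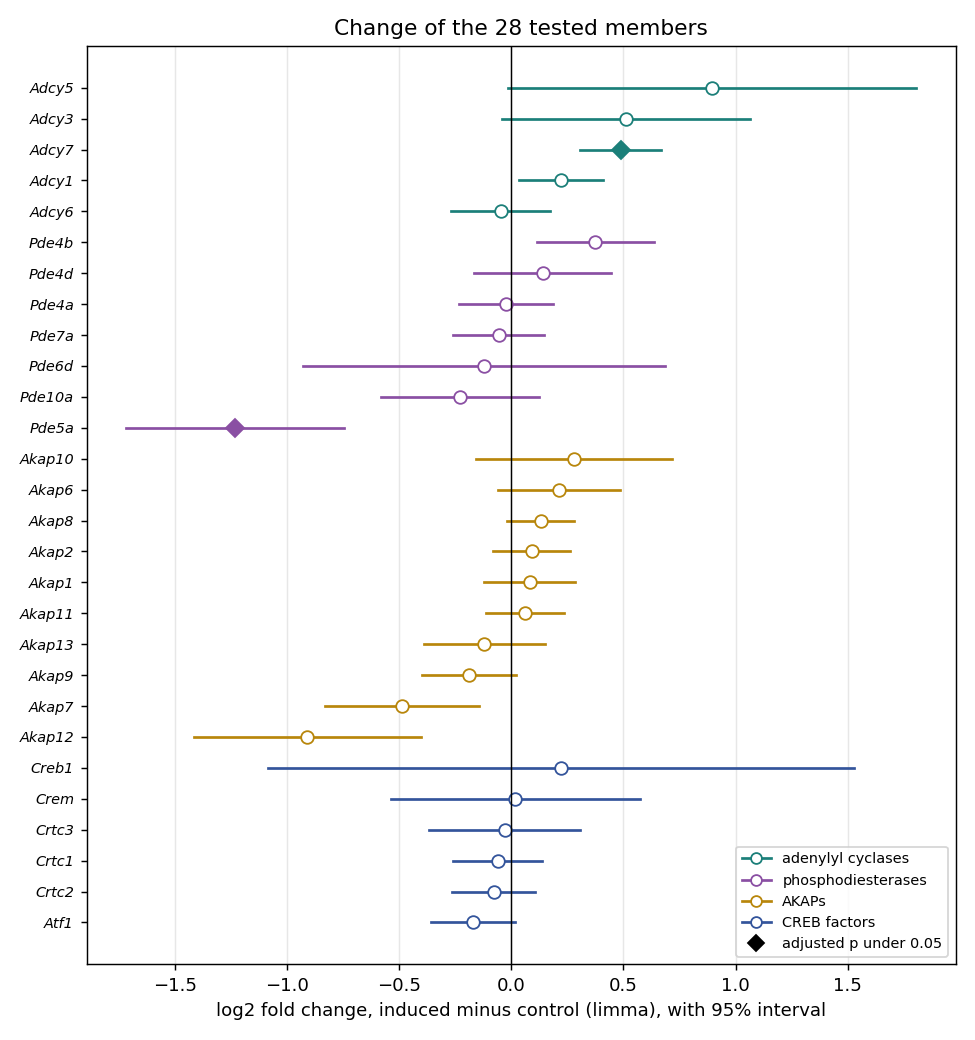
Log2 fold change (induced minus control, limma) of each of the 28 tested members on the x axis, with its 95% interval as a line, coloured by family; filled diamonds mark adjusted p under 0.05. Adcy7 (0.49) and Pde5a (-1.23) are the called members, and the CREB factors lie between -0.17 and 0.22.

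The promoter sequence of both called members is shown because the cAMP response element is the site that CREB factors bind, together with that of Pde4b, a phosphodiesterase gene known to be induced by cAMP. Each stretch is the 100 bases before a RefSeq start site on the plus strand of GRCm38.p6, and capitals mark the half-site CGTCA. They lie at chr8:88282892-88282991 for Adcy7, chr3:122729058-122729157 for Pde5a and chr4:102421455-102421554 for Pde4b.
Adcy7: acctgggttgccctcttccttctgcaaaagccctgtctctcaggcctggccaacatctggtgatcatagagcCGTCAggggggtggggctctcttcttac
Pde5a: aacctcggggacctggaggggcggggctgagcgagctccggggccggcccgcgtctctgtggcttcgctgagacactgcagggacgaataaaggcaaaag
Pde4b: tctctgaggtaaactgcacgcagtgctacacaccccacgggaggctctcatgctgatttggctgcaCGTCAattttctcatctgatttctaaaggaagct
The half-site begins 28 bases before the start in Adcy7 and 34 bases before it in Pde4b. RefSeq gives Adcy7 3 start windows and Pde4b 4, of which the first is shown; the other windows of both genes hold no half-site, and the data do not tell which start the cells used.

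The same motifs were counted in all RefSeq windows, from 250 bases before to 50 after a start. The full element searched was TGACGTCA, which reads the same on both strands, and the half-sites were TGACG and its reverse complement CGTCA, both of which the full element contains. Windows were found for 36 of the 44 members. Adcy6, Akap2, Akap12, Crem, Crtc2, Pde6a, Pde6g and Pde7a had none and were not searched. The full element was in none of the 36, beside 549 (2.03%) of 27025 genes. At that share 36 genes are too few to say that the element is scarcer among them. A half-site was in 10 of the 36 (27.8%), beside 23.0% of all genes, and in 16.9% of the members' 59 windows beside 20.8% of all windows, so half-sites were about as frequent in these genes as elsewhere. Among tested members it was in 5 genes: Adcy7, Pde4a, Pde4b, Akap11 and Atf1. No match says only that these letters are not in the window searched.

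Of the 8 adenylyl cyclase genes 5 were tested, and 1 rose, 0 fell and 4 did not pass. The 1 rise is 20% of the 5, beside 2.08% of all tested genes called higher and 1.34% called lower. With 5 genes that share is not a result about the family. Adcy7, a cyclase known to be enhanced by G protein beta-gamma subunits and abundant in blood cells, rose 1.40-fold. It had 3046 and 2813 normalized reads in controls and 4006 and 4201 in induced cells (2929 ± 165 and 4104 ± 138, SD, n = 2). Both induced libraries lay well above both controls, and the gap between the groups exceeded the distance between replicates. The limma log2 fold change was 0.49 (SE 0.07, adjusted p = 0.0306). Its adjusted p rose above the threshold with no expression filter (0.0669), without the variance trend (0.120), with a replicate block (0.0630), and without control replicate 2, induced replicate 1 or induced replicate 2 (0.0712, 0.0693 and 0.107), while the log2 fold change stayed between 0.43 and 0.54.

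Adcy6, a calcium-inhibited cyclase, had 4781 and 4212 normalized reads in controls and 4133 and 4559 in induced cells, so the groups overlapped. Its log2 fold change was -0.05 (95% interval -0.27 to 0.17, adjusted p = 0.817). Adcy1, the calcium and calmodulin-stimulated cyclase known for its role in hippocampal learning, had 2597 and 2767 against 3000 and 3256. The groups did not overlap, but its log2 fold change of 0.22 (0.03 to 0.41) did not pass the test over all genes (adjusted p = 0.206).

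Adcy3 and Adcy5 were measured at far lower levels. Adcy3, known from olfactory neurons and primary cilia, had 81.7 and 66.3 normalized reads in controls and 99.0 and 112 in induced cells (adjusted p = 0.293). Its exons share 1380 bases with Cenpo on the opposite strand, which had 910 and 824 normalized reads in controls and 950 and 957 in induced cells, and the kit named in the labels does not mark the strand, so reads of the pair cannot be told apart. Adcy5, the cyclase best known from the striatum, had 25.1 and 21.1 against 34.8 and 54.7 (log2 fold change 0.89, interval -0.02 to 1.80, adjusted p = 0.268). In both genes the induced libraries lay above the controls by less than the test could separate. Both induced libraries lay above both controls in 4 of the 5 tested cyclases, beside 26.2% of all tested genes, and of these 4 only Adcy7 passed. With 5 genes, of which Adcy3 and Adcy5 had few reads, this share is not a result about the cyclases as a group.

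Levels of different genes can be compared only per length, so normalized reads were divided by the kilobases of all annotated exons of a gene. On that scale Adcy6 led the cyclases in the controls with 705 and 621 normalized reads per kilobase, above Adcy7 with 452 and 418. In the induced cells Adcy7 reached 595 and 624 per kilobase, which overlapped Adcy6 at 609 and 672. Adcy1 followed at 207 and 221 in controls and 240 and 260 in induced cells, and Adcy3 and Adcy5 lay between 2.93 and 18.0. Summed over the 8 genes the cyclases held 1386 and 1275 normalized reads per kilobase in controls and 1466 and 1589 in induced cells. The plot of levels by library shows 3 abundant cyclases and a steep drop to the others.

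**Figure D2:**
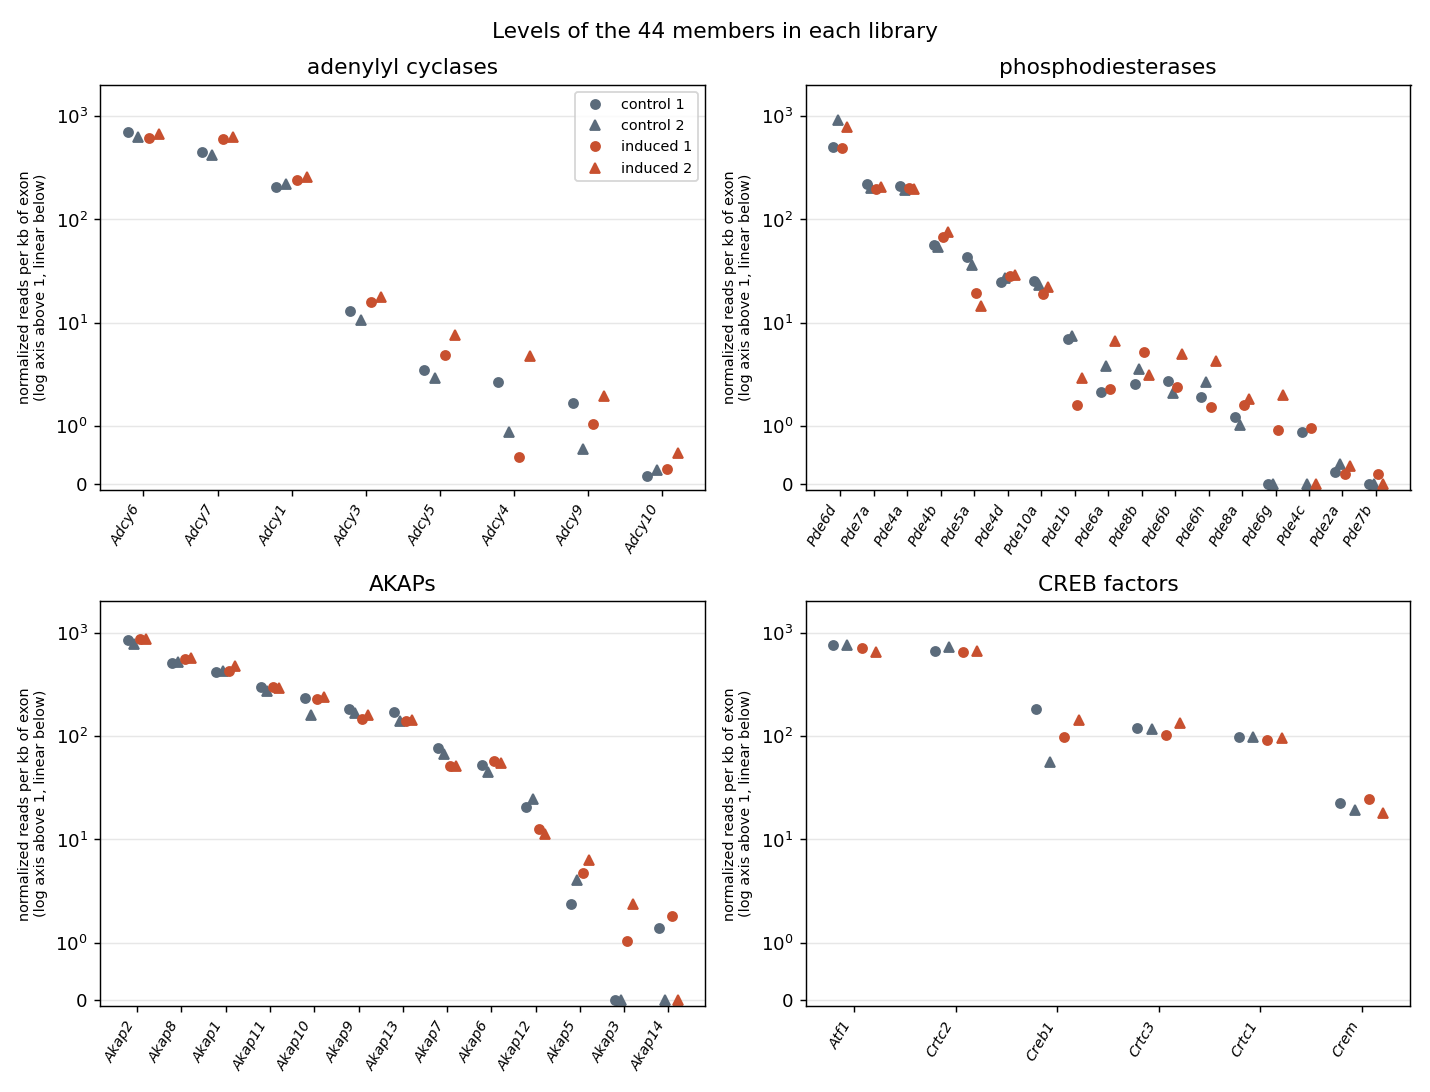
Normalized reads per kilobase of exon of the 44 members in each library (y axis, logarithmic above 1 and linear below), 1 panel per family with genes in order of their mean; grey points are controls, orange points induced cells, circles replicate 1 and triangles replicate 2. Adcy6, Adcy7 and Adcy1 stand far above the other cyclases, Creb1 is spread widely within the controls, and Pde6d is higher in replicate 2 of both groups.

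Of the 17 phosphodiesterase genes 7 were tested, and 0 rose, 1 fell and 6 did not pass. The 1 fall is 14.3% of the 7, beside 1.34% of all tested genes called lower and 2.08% called higher. With 7 genes that share is not a result about the family. Pde5a, which encodes the cGMP-specific phosphodiesterase that sildenafil inhibits, was 2.34-fold lower in induced cells. It had 425 and 355 normalized reads in controls and 191 and 142 in induced cells (390 ± 49.6 and 167 ± 34.99, SD, n = 2), which rested on 338, 337, 176 and 153 reads. Both induced libraries lay far below both controls, beyond the distance between replicates. The limma log2 fold change was -1.23 (SE 0.20, adjusted p = 0.0359). Its adjusted p rose above the threshold with no expression filter (0.0776), without the variance trend (0.103), and without control replicate 1, control replicate 2 or induced replicate 2 (0.113, 0.0662 and 0.0829), with the log2 fold change between -1.45 and -1.02 over the alternatives. Its exons share 55 bases with 4930447N08Rik on the opposite strand.

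The Pde4 genes encode the cAMP-specific phosphodiesterases that rolipram inhibits, and 3 of 4 were tested without a call. Pde4b had 599 and 569 normalized reads in controls and 714 and 802 in induced cells, groups that did not overlap. Its log2 fold change was 0.38 (interval 0.11 to 0.64), and it did not pass over all genes (adjusted p = 0.145). Pde4d had 299 and 326 against 338 and 351 (log2 fold change 0.14, adjusted p = 0.594). Pde4a, the most abundant Pde4 gene per kilobase, had 1627 and 1465 against 1527 and 1509, with overlapping groups (-0.02, interval -0.23 to 0.18, adjusted p = 0.901). Summed over those 3, the level per kilobase was 294 and 272 in controls and 295 and 302 in induced cells.

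Among the other tested phosphodiesterases, Pde7a, also cAMP-specific, had 1710 and 1569 normalized reads in controls and 1538 and 1613 in induced cells, overlapping groups with a log2 fold change of -0.06 (interval -0.26 to 0.15). Pde10a, which degrades both cyclic nucleotides and is best known from striatal neurons, had 323 and 301 against 247 and 287 (log2 fold change -0.23, adjusted p = 0.445). Pde6d, described here after its values were seen, had the highest level per kilobase of the family. It encodes a carrier of prenylated proteins rather than a catalytic subunit. It had 1099 and 1983 normalized reads in controls and 1074 and 1711 in induced cells, so in both groups replicate 2 was high and replicate 1 low. The ratio of its replicates, 1.80 in controls and 1.59 in induced cells, was larger than that of 98.9% and 98.3% of the 8876 tested genes with a mean of at least 500 normalized reads. Between the groups its log2 fold change was -0.12 (SE 0.33, or 0.10 with a replicate block), and it did not pass in either fit (adjusted p = 0.871 and 0.603).

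Of the 13 AKAP genes 10 were tested and 0 were called by limma in either direction. Of all tested genes 2.08% were called higher and 1.34% lower, and at those shares 10 genes are too few for 0 calls to be a result about the anchors. At an unadjusted p under 0.05 there were 2 of 10, Akap12 and Akap7, both lower, beside 19.1% of all tested genes at that p in either direction, and limma voom on the recovered reads also called 0. The median log2 fold change of the 10 was 0.07. Akap12 (gravin), a scaffold at the plasma membrane that is known to hold beta-adrenergic receptors together with protein kinase A, had 133 and 160 normalized reads in controls and 81.6 and 73.3 in induced cells. The groups were well apart, yet the log2 fold change of -0.91 (interval -1.41 to -0.40) gave an adjusted p of 0.0845. Akap7, whose short forms anchor the kinase beside ion channels, had 336 and 295 against 225 and 223 (-0.49, interval -0.83 to -0.15, adjusted p = 0.146). In both genes the 2 induced libraries were close to each other and below both controls.

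Akap2 and Akap8, the 2 most abundant anchors per kilobase, and Akap6 did not pass. Akap2, at 841 normalized reads per kilobase the highest AKAP gene by its mean over the 4 libraries, had 6980 and 6327 normalized reads in controls and 7118 and 7030 in induced cells (log2 fold change 0.09, interval -0.08 to 0.26). In the annotation 6891 of its 8163 exon bases also belong to Pakap on the same strand, so reads of Akap2 may have been divided between the 2 genes. Pakap had 78.0 and 80.0 normalized reads in controls and 67.4 and 56.6 in induced cells, and the division was not tested. Akap8, an anchor of the nuclear matrix, had 4429 and 4524 against 4841 and 4965 (0.13, interval -0.02 to 0.28, adjusted p = 0.311). Akap6, the anchor of the nuclear envelope in muscle and neurons, had 775 and 668 against 853 and 815 (0.21, interval -0.06 to 0.48).

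Akap10, which can bind both types of regulatory subunit, had 1510 and 1036 normalized reads in controls and 1488 and 1554 in induced cells. Control replicate 2 was low there and the other 3 libraries lay close together. Its log2 fold change of 0.28 (adjusted p = 0.446) was 0.55 without control replicate 1 and 0.01 without control replicate 2. The 4 remaining tested anchors, Akap1 of the mitochondrial outer membrane, Akap9 of the Golgi and centrosome, Akap11 and Akap13, had log2 fold changes from -0.19 to 0.08. Akap9 had 3910 and 3552 against 3103 and 3446 normalized reads, with both induced libraries below both controls, and did not pass (adjusted p = 0.307).

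**Figure D3:**
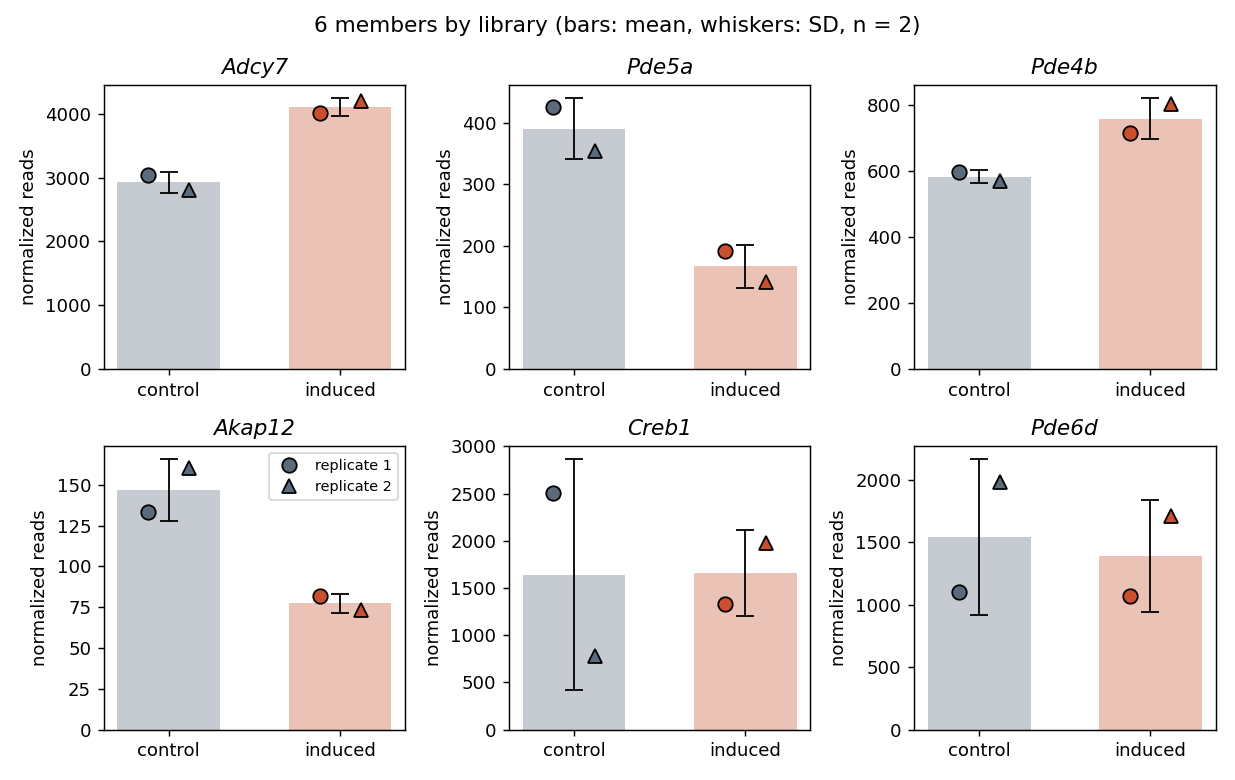
Normalized reads of Adcy7, Pde5a, Pde4b, Akap12, Creb1 and Pde6d (y axes from 0); bars are group means, whiskers SD (n = 2), circles replicate 1 and triangles replicate 2. Groups do not overlap for the first 4 genes, whereas the controls of Creb1 (2506 and 776) enclose both induced libraries and Pde6d is higher in replicate 2 of each group.

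All 6 CREB factor genes were tested, and 0 were called by limma, beside 2.08% of all tested genes called higher and 1.34% lower. None had an unadjusted p under 0.05, beside 19.1% of all tested genes, and limma voom called 0. Both induced libraries lay below both controls in 3 of the 6, Atf1, Crtc1 and Crtc2 (50%, beside 25.1% of all tested genes). They lay above both in 0 (beside 26.2%). With 6 genes none of these shares is a result about the group. Atf1, a CREB relative that can pair with it, stood with Crtc2 at the top of the group per kilobase, with libraries that overlapped (644 to 760 and 649 to 722). It had 2309 and 2324 normalized reads in controls and 2150 and 1971 in induced cells. Both induced libraries were lower, by a log2 fold change of -0.17 (interval -0.36 to 0.02, adjusted p = 0.298). Crem, whose short forms act as inducible repressors of cAMP response, had 132 and 115 against 146 and 107, with overlapping groups (0.02, interval -0.54 to 0.57, adjusted p = 0.973).

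Creb1 itself could not be compared with any precision. It had 2506 and 776 normalized reads in controls and 1333 and 1982 in induced cells, which rested on 1993, 737, 1226 and 2137 reads. The controls enclosed both induced libraries, and their ratio of 3.23 exceeded that of 99.8% of the 8876 tested genes with a mean of at least 500 normalized reads, for which the median ratio was 1.07. The ratio between the induced libraries, 1.49, exceeded that of 97.8% of those genes. The group means were nearly equal, at 1641 ± 1223 and 1658 ± 459 (SD, n = 2), and the log2 fold change was 0.22 with an interval of -1.09 to 1.53 (adjusted p = 0.857). It was 1.07 without control replicate 1 and -0.62 without control replicate 2, neither of which passed (adjusted p = 0.115 and 0.247).

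The Crtc genes encode coactivators that enter the nucleus and join CREB when cAMP and calcium rise. Crtc2 had 2699 and 2955 normalized reads in controls and 2655 and 2690 in induced cells (log2 fold change -0.08, interval -0.26 to 0.10). Crtc1, the form prominent in neurons, had 1100 and 1097 against 1033 and 1073 (-0.06, interval -0.26 to 0.14). Crtc3 had 1190 and 1150 against 1005 and 1307, with the induced libraries on either side of the controls (-0.03, interval -0.37 to 0.31). Crtc1 was close to constant within the controls, and the lower bounds of Crtc1 and Crtc2 were both -0.26.

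Not tested were 16 members with 2 to 116 reads over the 4 libraries. Pde1b, a calmodulin-dependent phosphodiesterase of neurons, had 30 and 38 reads in controls and 8 and 17 in induced cells. In 1 of the 16, Pde1b, both induced libraries were below both controls (12.3% of all genes under the filter), and in 5 they were above (13.1%): Akap3, Akap5, Adcy10, Pde6g and Pde8a. For Pde1b, in the fit without a filter the test was not passed (log2 fold change -1.64, adjusted p = 0.202). Akap5, the postsynaptic anchor known from hippocampal dendrites, had 13 and 26 reads against 30 and 47 (adjusted p = 0.487 in that fit). The photoreceptor subunit genes Pde6a, Pde6b, Pde6g and Pde6h had at most 36 reads in a library. Akap3, an anchor of the sperm flagellum, had 0 reads in both controls and 3 and 8 in induced cells. Adcy4, Adcy9, Adcy10, Pde2a, Pde4c, Pde7b, Pde8a, Pde8b and Akap14 had 80 reads or fewer in all. In the fit without a filter 0 of the 16 passed by limma, and 3 (Pde1b, Akap3 and Pde6g) had an unadjusted p under 0.05, beside 13.5% of all genes in that fit.

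Other genes of the pathway were taken from lists of kinase subunits, effectors, anchors with other symbols, CREB regulators, further CREB and ATF factors, and CREB target genes. Of 7 tested subunits and inhibitors of protein kinase A, 0 rose and 1, Prkar2b, fell (14.3%, beside 1.34% of all tested genes). With so few genes, in a list chosen with earlier results known, that share is not a result about the kinase. Prkar2b, the type II beta regulatory subunit, had 1649 and 1559 normalized reads in controls and 1123 and 1116 in induced cells (limma log2 fold change -0.52, adjusted p = 0.0312). The call of Prkar2b ended whichever library was left out (adjusted p up to 0.107), without the filter, without the trend and with a replicate block (0.0655, 0.10 and 0.0630). Prkar1a and Prkaca, the most abundant members of the list by reads, had log2 fold changes of 0.08 and -0.06. Among 5 tested G proteins and other effectors limma called 0 (2.08% of all tested genes were called higher and 1.34% lower). At an unadjusted p under 0.05 there were also 0 (19.1% of all tested genes were). Gnas, the stimulatory G protein of cyclases, had 20769 and 19334 against 20820 and 22097 normalized reads, and Gnai2 had a log2 fold change of 0.04. Limma also called 0 of 7 anchors with other symbols, 0 of 9 CREB regulators and 0 of 10 further CREB and ATF factors, beside those same shares. In these lists 2, 2 and 3 genes had an unadjusted p under 0.05, all lower (8.78% of all tested genes were lower at that p). Limma voom called 0 in these lists. With so few genes, in lists chosen with earlier results known, these counts are not a result about any of the lists. Pcnt and Arfgef2, Ppp1ca and Ep300, and Atf4 and Atf7, the most abundant of each by reads, had log2 fold changes of -0.02, -0.06, 0.10, -0.18, -0.18 and -0.20.

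Of 18 tested genes known as CREB targets 3 rose (16.7%, beside 2.08% of all tested genes), 1 fell (5.56%, beside 1.34%) and 14 did not pass. Their median log2 fold change was 0.08. The list was chosen with earlier results of these data known, so these shares are no test of CREB targets as a group. Ptgs2, the inducible cyclooxygenase gene, had 1535 and 1863 normalized reads in controls and 4710 and 4364 in induced cells (log2 fold change 1.42, adjusted p = 0.00637). Nos2, the inducible nitric oxide synthase gene, had 214 and 194 against 499 and 416 (1.16, adjusted p = 0.0226). Junb, an AP-1 subunit gene, had 1291 and 1415 against 2269 and 2075 (0.68, adjusted p = 0.0226), whereas Egr1, an immediate early zinc finger gene, had 2496 and 2682 against 1806 and 1641 (-0.59, adjusted p = 0.0280). The called targets thus moved both ways. The 14 that did not pass had log2 fold changes from -0.81 (Ppargc1a, a coactivator gene, adjusted p = 0.0739) to 1.17 (Areg, a growth factor gene, adjusted p = 0.189). Ptgs2 stayed called in each of 12 alternatives, while leaving out 1 library ended the calls of Nos2 (without control replicate 2 or induced replicate 1), Junb (without control replicate 1 or induced replicate 1) and Egr1 (without either control or induced replicate 2), with adjusted p up to 0.0682, 0.0648 and 0.0873. The calls of Nos2, Junb and Egr1 also ended without the filter (adjusted p = 0.0515, 0.0520 and 0.0629) and without the trend (0.0634, 0.0899 and 0.107), and that of Egr1 with a replicate block (0.0523). These genes also answer to other pathways, and the part of cAMP in their change was not tested.

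**Figure D4:**
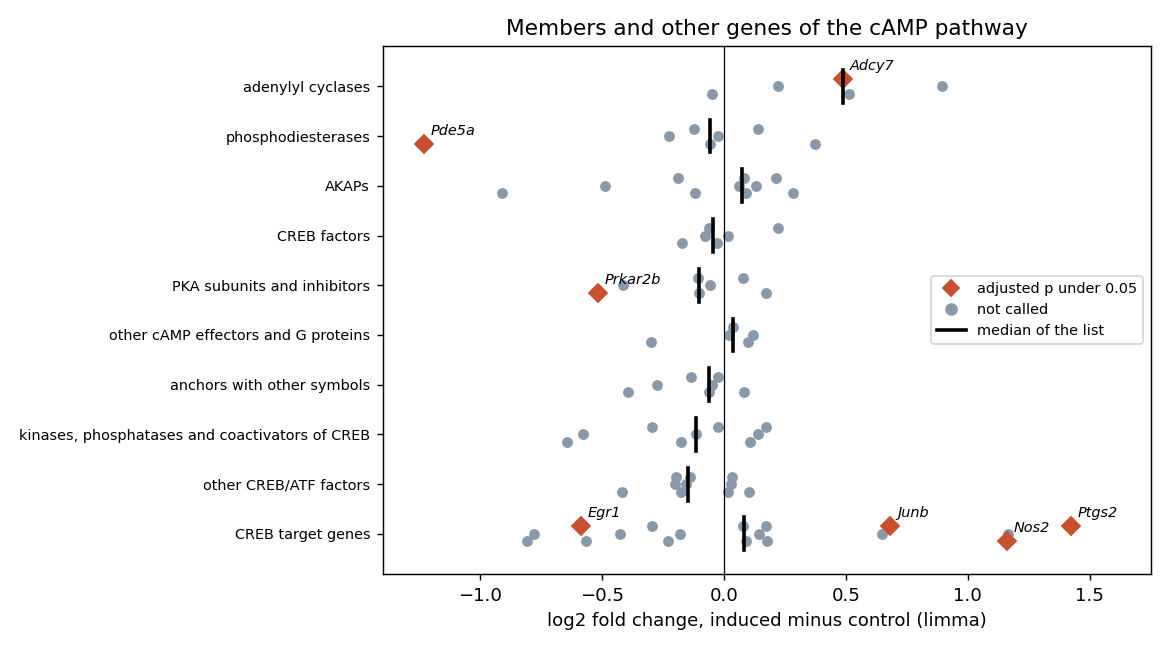
Log2 fold change (induced minus control, limma) of the tested members by family and of the tested genes of 6 further lists of the cAMP pathway; each point is a gene, diamonds are called at an adjusted p under 0.05 and named, and black bars are list medians. Most genes lie within 0.5 of 0, and the called CREB targets lie on both sides.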

How the data were processed

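The authors deposited 1 table of log2 values per gene and library. The submitters' processing notes name HISAT, Cufflinks and the genome build mm9, without versions, while the counting tool and library scaling were not given in the sources used here. With 2 raised to each deposited log2 value and 1 subtracted, 100% of values per library were whole multiples of 1 step (tolerance 0.01), so they are log2(normalized reads + 1) and whole reads could be recovered. The deposited log2 values (pseudocount 1, which understates changes of low genes) were fitted by group in limma 3.58.1 under R 4.3.3, two-sided, with a variance trend and no covariate. The filter was a mean of 1 CPM or more, which 13276 genes reached. SEs and 95% intervals come from that fit. Its calls and their direction were tested on simulated data with the same spread setting for every gene, while its SEs and intervals were not. A fold is the ratio of mean normalized reads. Exon lengths and overlaps come from GENCODE M21 (GRCm38), in which all 44 genes were found by Ensembl ID. In that annotation 12 members share exon bases with another gene, on the opposite strand for all but Akap2 and Pde2a. Besides those described above, Adcy6 shares 605 bases with Gm29331, Crem 472 with Gm6225 and Akap9 166 with Cyp51. The part of such partner genes in the members' reads was not tested. Members and gene lists were chosen with earlier results of these data known. Values are given for Pja2, for called members, for the 4 members of largest log2 fold change and the 2 of most reads in each family, for the 6 CREB factors, and for called genes and the 2 of most reads in other lists. Outside that rule are Pde6d, Akap9, Ppargc1a, Areg, Cenpo and Pakap (which overlap Adcy3 and Akap2), the marker genes and the members under the filter. All of these were described after their values were seen. Alternatives were the filter (none or 5 CPM), the pseudocount (0.5 or 10), scaling by total reads, limma voom on recovered reads, no trend, a replicate block and leaving out each library.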

Additional observations from a re-analysis of the deposited data

How the results depend on the processing

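Adcy7 kept its call in 6 of 12 alternatives and Pde5a in 7, with the direction unchanged in each. The called members numbered 0 higher and 0 lower without the filter and without the trend, 0 higher and 1 lower with the replicate block, and 0 to 1 in each direction when a library was left out. Over all genes the calls, 276 higher and 178 lower, were 100 and 59 without the filter, 64 and 52 without the trend, and 157 and 104 with the replicate block. They ran from 113 to 204 higher and from 78 to 136 lower when a library was left out; induced replicates 1 and 2 (126 and 113 higher) and control replicates 1 and 2 (78 and 111 lower) moved them most. Fits with a library left out or with the block have fewer degrees of freedom. Of the 23 named members 17 kept their direction in every alternative that could give a value (4 fell under the filter of 5 CPM), and 21 were called in none. The other 6 changed sign only when a library was left out, with log2 fold changes from -0.139 to 0.0437 for Adcy6, -0.62 to 1.07 for Creb1, -0.21 to 0.24 for Crem, -0.22 to 0.16 for Crtc3, -0.10 to 0.0511 for Pde4a and -0.119 to 0.0051 for Pde7a. Arfgef2 ran from -0.134 to 0.0126 and Pcnt from -0.10 to 0.0519. The members' median log2 fold change was 0.11 without the filter, where 44 entered, and -0.0407 to 0.0661 when a library was left out. The cause of these changes was not tested. Replicate numbers come from the titles and nothing says that they pair libraries; the differences between replicates 1 and 2 correlated at -0.10 between the groups across genes, which are not independent. Members with few reads are limited by depth.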

Other observations

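Pde4c and Akap14, among the scarcest members, had reads in replicate 1 of both groups and 0 in replicate 2. Pde4c had 4 reads in control replicate 1 and 5 in induced replicate 1, and Akap14 had 2 and 3. Both genes were singled out after their values were seen, and no cause was tested.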
